A study of Drosophila melanogaster with 35 samples.

Results

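The genes described here are those whose cDNA probes carried the highest DamID signal of Jra, the fly Jun protein, in Kc167, a Drosophila cell line derived from embryos. The members were chosen by their Jra values: a probe was taken when the mean of its deposited log ratio over the 3 untreated Jra arrays was at least 0.8. Of 9993 probes, 624 reached that mean. The probe of Jra itself was left out, because it reads the transfected plasmid, with 4.84, 4.66 and 4.46 on the 3 arrays. Another 6 were left out because at least 1 of their Jra values was missing, among them probes of ctp, vari and CG7029. The 617 members, 6.17% of all probes, include 518 with a single gene name, 14 with several and 85 unnamed here, and the named ones stand for 479 genes.

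DamID joins a protein to Dam, a bacterial enzyme that methylates adenine, so that DNA close to the protein gains methyl groups and can be set against DNA from cells with unfused Dam. Per the labels, each fusion gene lay in full length in pNDamMyc, a plasmid with Dam and a Myc tag, which Kc cells took up by transfection. Unfused Dam filled the second channel, and some arrays had the dyes exchanged. Cells without knock-down carried fusions of HP1 (4 arrays), Su(var)3-9 (3), HP3 (4), HP4 (4), HP5 (4), HP6 (3) or Jra (3). For HP3 there were 3 further arrays with HP1 knocked down and 3 with white, an eye pigment gene that served as control, knocked down, and for HP6 there were 2 and 2. Values are log ratios of fusion to Dam. No source used here gives their base, and they were read as log2, on which all printed sizes depend. The assay measures DNA, so the label Kc167 could not be checked against marker transcripts. Nothing in the labels ties replicates to separate cultures. The p-values therefore reflect the spread between arrays, which may be technical, and the number of arrays sets the precision. A single Dam fusion in transfected cells cannot show whether the protein occupies these places at its natural level.

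Jra pairs with Kayak, the fly Fos, to form AP-1, a leucine-zipper transcription factor. AP-1 acts at the end of the JNK kinase cascade and is known for its part in dorsal closure, wound repair, cell death, immunity and the response to stress. HP1 and the histone methyltransferase Su(var)3-9 mark heterochromatin, the compact chromatin around centromeres and on chromosome 4, and HP3 to HP6 are proteins studied here together with HP1. HP3 is the product of Lhr.

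Some arrays stood apart from their label. On the array labelled HP3 replicate 2 the probe of Lhr, which the HP3 plasmid should raise, read 0.09, against 3.52 to 6.19 on the other 9 HP3 arrays. On the array labelled HP6 replicate 3 the probe of HP4 read 4.81, in the range of the HP4 arrays (3.71 to 5.01), while the other 6 HP6 arrays lay between -0.55 and 0.75. Results for HP3 and HP6 are therefore given with and without them. The 3 Jra arrays correlated at 0.856 for replicates 1 and 2, which had the fusion in Cy3, and at 0.485 and 0.518 for each of these with replicate 3, which had it in Cy5.

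As a description of what the rule selected, the median member had a mean Jra ratio of 1.05 and the highest 2.16. A mean of at least 1.2 was reached by 176 members and of at least 1.6 by 37. The members' medians were 1.09, 1.17 and 0.932 on the 3 arrays, and 612 of the 617 lay above 0 on every array, but only 281 were at or above 0.8 on every array. A few means came from 1 array: Osi12, an Osiris family gene, read 5.00, 0.68 and -0.29, and Nuak, a protein kinase gene, 3.19, 1.48 and 0.23. The range over the arrays exceeded 2 for 7 members. Probes chosen on replicates 1 and 2 alone had a median of 0.709 on replicate 3, where 92.5% of the 778 were above 0. Probes chosen on the pairs that hold replicate 3 had medians of 1.05 and 1.15 on the array left out, with 99.3% and 99.8% above 0. Just inside the threshold were RapGAP1 (0.803), a GstD1 probe (0.802) and betaTub56D (0.801), and just outside it for (0.799), an unnamed probe (0.799) and CG14618 (0.798).

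The highest Jra mean with a single gene belonged to cwo, a repressor of the circadian clock, which read 2.05, 2.49 and 1.95. Next came spict, a regulator of receptor traffic at the endosome, with 1.64, 1.85 and 2.59. Pfdn2, a subunit of the prefoldin chaperone, read 2.10, 2.61 and 1.20. GATAd, a GATA transcription factor, read 2.27, 2.08 and 1.44. All arrays of these genes lay above 1, and replicate 3 was the lowest for cwo, Pfdn2 and GATAd but the highest for spict. The adhesion adaptor stck followed with 1.84, 2.07 and 1.87, and the endosomal sorting gene Vta1 with 2.16, 2.06 and 1.37. The 25 genes or gene probes of the highest rank ended at puc, with a mean of 1.65, and included the serpin gene Spn55B (1.83), the amino acid transporter gene mnd (1.71), the dynein light chain gene Dlc90F (1.72), snRNP-U1-70K (1.67) and 2 probes of Lamtor5, a subunit of the lysosomal Ragulator complex (1.69 and 1.67).

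Member genes made up 6.19% of the 7736 named genes, and their share in function lists was read against that figure as a description. In the list of JNK pathway and AP-1 genes, 4 of 25 measured genes were members, with a list median of 0.07 over the mean Jra ratios of its genes. Here puc, the phosphatase that switches JNK off and a classic target of AP-1, had a mean of 1.65 ± 0.21 (SD, n = 3). Ets21C, an ETS factor, had 1.01 ± 0.19, Pvf2, a ligand of the PDGF and VEGF receptor homologue, 0.94 ± 0.23, and the stress kinase p38a 0.84 ± 0.47. The p38a mean came largely from replicate 3, which read 1.37 against 0.65 and 0.49.

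Receptor tyrosine kinase signalling gave 3 of 23: the adaptors drk (1.45 ± 0.08) and dos (1.22 ± 0.13) and the ETS regulator edl (1.12 ± 0.15). Immunity gave 4 of 23. These were imd, the adaptor of the Imd pathway (1.12 ± 0.03), pirk and PGRP-LF, which restrain that pathway (1.09 ± 0.42 and 0.86 ± 0.11), and Socs44A (1.01 ± 0.43). Apoptosis gave 3 of 15, all of them caspases: Strica (1.26 ± 0.14), Dcp-1 (1.19 ± 0.20) and the initiator Dronc (1.16 ± 0.08). The JNK, receptor kinase, immune and apoptosis lists thus held 13.0% to 20.0% member genes, while their list medians stayed between -0.01 and 0.17. They did not stand apart from every other list in this share. The ecdysone, hemocyte and stress lists held 18.8%, 15.8% and 19.0%, with list medians of 0.12, -0.06 and 0.45. The share was lower in others, at 9.38% for adhesion and matrix, 8.82% for the spliceosome and proteasome, and 6.25% for Notch, Wnt, Hedgehog and BMP. Each list had few members, and differences between lists were not tested. Ecdysone response genes gave 3 of 16, hemocyte genes 3 of 19, stress genes 4 of 21, and adhesion and matrix genes 3 of 32. Among them were the cathepsin gene CtsL1 (1.43 ± 0.54), the insulin-binding protein gene ImpL2 (1.07 ± 0.49), the heat shock gene Hsp26 (1.11 ± 0.11), the tensin gene by (1.53 ± 0.57) and glec (1.14 ± 0.23). Notch, Wnt, Hedgehog and BMP genes gave 1 of 16, the Notch target E(spl)mbeta-HLH (1.25 ± 0.12). Spliceosome and proteasome genes gave 3 of 34, which were Rpn11, Prosbeta6 and SmD3.

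Gene families were grouped after the members had been seen, so their shares only describe the selection. Members held 8 of 15 measured genes of the ESCRT machinery, which bends membranes inward at endosomes: Vta1 (1.86 ± 0.43), Vps60 (1.59 ± 0.71), Chmp1 (1.57 ± 0.48), shrb (1.54 ± 0.41), Vps24, Vps20, Stam and CHMP2B. All 15 had a mean above 0 and the median was 0.81. The CCT chaperonin, which folds actin and tubulin, had 6 of 8 subunits among the members, from CCT6 (1.39 ± 0.20) to CCT1 (0.82 ± 0.29). Of the glutathione S-transferases, enzymes that conjugate toxins and peroxides to glutathione, 10 of 21 were members, with GstT1 (1.55 ± 0.44), GstE2 (1.46 ± 0.35) and GstE6 (1.41 ± 0.11) the highest. Thiol and peroxide defence had 7 of 19. They included the thioredoxin gene Trx2 (1.58 ± 0.17), the glutathione peroxidase gene Gtpx (1.35 ± 0.10), Gclc, which makes the precursor of glutathione (1.27 ± 0.54), the reductase gene Trxr1 (0.97 ± 0.32) and maf-S, the small Maf partner of the antioxidant factor Cnc (0.89 ± 0.22). Glycolysis and NADPH supply had 6 of 14, sorting nexins and their partners 5 of 12, autophagy genes 5 of 18, caspases 3 of 4, ferritin subunits both of 2, clock genes 3 of 13 and imaginal disc growth factors 2 of 6. Cytochrome P450s, with 6 of 57, cytoplasmic ribosomal proteins, with 1 of 34 (RpS20), and mitochondrial ribosomal proteins, with 0 of 61, held few or none, although 39 of the 61 mitochondrial genes had means above 0.

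**Figure D1:**
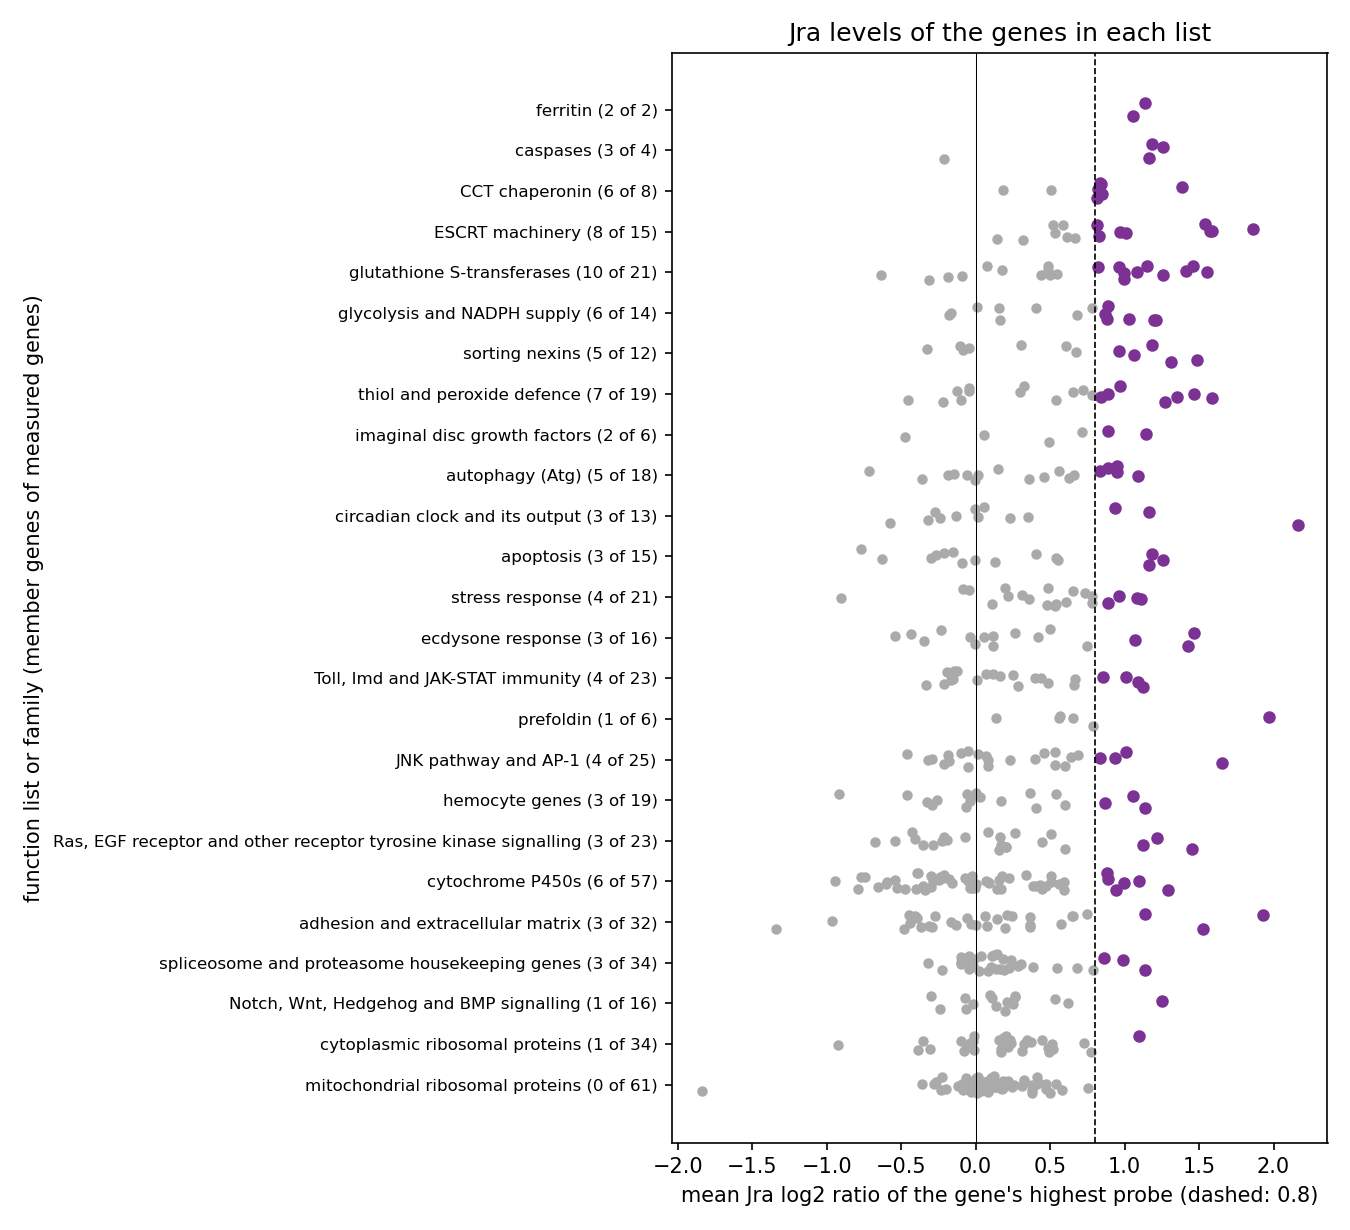
Mean Jra log2 ratio of each measured gene, taken at its probe with the highest mean, in 10 function lists and 15 families, where each point is a gene, purple points are genes with a member probe and the dashed line is 0.8. The families were grouped after the members had been seen. ESCRT, CCT and glutathione S-transferase genes reach past the line, while the mitochondrial ribosomal protein genes stay short of it.

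The members were spread over the genome. They took between 5.38% of the named probes of the X chromosome and 6.58% of those of arm 2R, but 1 of 61 probes on chromosome 4, that of the Pax gene toy. Genes were often next to each other. Over pairs of a member gene and its immediate neighbour in the Release 6 order, 17.0% of 588 neighbours were members too, with a median Jra ratio of 0.28. At a distance of 2 genes the share was 8.80% with a median of 0.10, and at 3 genes 5.42% with 0.03, while over all 7605 measured genes it was 6.22% with -0.03. There were 45 runs of adjacent member genes with 95 genes in all. The longest run was aqz, CG8369, IscU and CG8379 on 3R, and the next had GstE1, GstE2 and GstE3 on 2R. The share of members also differed between cDNA libraries, from 1.66% of the clones with the prefix AT to 8.93% of those with RH. Of the 101 member genes with more than 1 probe, 34 had only member probes, and the 77 other probes of these genes had a median Jra ratio of 0.40, with 83.1% above 0 against 48.7% of all probes. Those 77 had to lie under 0.8 or lack a value, so this share only describes them.

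The depletion of each heterochromatin protein was tested on measures that the rule did not use. A probe was called when its mean over the arrays of a protein differed from 0, the array median, at an adjusted p under 0.05 in limma, over 9934 probes with enough values. Of the members, 615 could be tested. Su(var)3-9, HP4 and HP5 were called low at many of them, and HP1, HP3 and HP6 were called at few. Uncalled values could still lean one way, as they did for HP1, and for HP6 on all arrays but the doubted one.

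For Su(var)3-9, 271 of 615 members (44.1%) were called below 0, against 17.4% of all probes tested, and 20 (3.25%) were called above 0, against 15.8%. The median over the members was -0.49, and it was -0.00 over all probes. The members' medians on the 3 arrays were -0.49, -0.50 and -0.46, so each array showed the shift. The lowest value was that of cbt, a zinc finger transcription factor gene, with -3.16, -1.90 and -2.42 on the 3 arrays and a fitted mean of -2.54 (SE 0.29, adjusted p = 1.76e-07). The next named genes were aqz (-2.15, SE 0.35, adjusted p = 2.66e-05) and Nhe1, a sodium-proton exchanger gene (-2.07, SE 0.25, adjusted p = 5.20e-07). Also low was puc, with -2.18, -1.65 and -1.71 (fitted mean -1.87, SE 0.24, adjusted p = 9.47e-07). Every array of these genes lay well below the array median. Of the 4 JNK list members, 3 were called below 0 for Su(var)3-9, for HP4 and for HP5, and p38a was not. Its Su(var)3-9 mean was called above 0 (1.13, SE 0.28, adjusted p = 0.00273), with 0.42, 2.82 and 0.15 on the arrays, so 1 array carried it. The count above 0 was 1.79% of the members without Su(var)3-9 replicate 1 or without replicate 2, where all probes had 8.21% and 10.1%.

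HP4 was called below 0 at 284 members (46.2%), against 21.8% of all probes, and above 0 at 34 (5.53%), against 19.7%. The members' median was -0.40, and the array medians ran from -0.56 to -0.31 over the 4 arrays. The clock repressor gene cwo read -1.41, -3.26, -1.02 and -1.27 (fitted mean -1.74, SE 0.25, adjusted p = 4.27e-06). The translation regulator gene kra read -2.27, -2.31, -1.22 and -1.02 (fitted mean -1.70, SE 0.20, adjusted p = 9.59e-08). At cwo replicate 2 was far below the other arrays, which was the array with the widest spread of all HP4 arrays. Without that array 3.09% of the members and 14.8% of all probes were called above 0. A fit of the 4 HP4 arrays alone called 10.2% of the members below 0 and 2.64% of all probes, and 0.972% against 4.44% above 0.

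HP5 was called below 0 at 270 members (43.9%), against 18.7% of all probes, and above 0 at 27 (4.39%), against 18.4%. The median over the members was -0.38, with array medians of -0.64, -0.44, -0.24 and -0.24. The arrays with the fusion in Cy3 were thus lower than those with it in Cy5, and all 4 lay below 0. The lowest members included aqz (-2.01, SE 0.30, adjusted p = 7.13e-06), mnd (-1.62, SE 0.23, adjusted p = 4.76e-06) and RalGPS (-1.66, SE 0.22, adjusted p = 1.42e-06). Without HP5 replicate 1 the share called below 0 was 27.0%, against 10.7% of all probes. The share called above 0 was 2.60%, 2.44% and 2.93% without replicates 1, 2 and 3, where all probes had 11.6%, 12.8% and 14.5%.

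The calls fell on shared probes. Below 0 for all of Su(var)3-9, HP4 and HP5 were 181 members (29.4%), against 9.69% of all probes, and 241 members (39.2%) were below 0 for none of them, against 69.3%. Among those low for the 3 proteins were all 3 caspase genes, all 3 members of the receptor kinase list, Trx2, Gtpx, Fer1HCH, Hsp26 and stck. Dronc, for example, read -1.18, -0.85 and -1.03 for Su(var)3-9, -0.82, -0.54, -0.75 and -0.53 for HP4, and -0.88, -1.06, -0.73 and -0.61 for HP5. The adaptor drk read -0.75, -0.75 and -0.88 for Su(var)3-9 and between -1.68 and -0.43 on the HP4 and HP5 arrays. Families with high Jra did not all share this pattern. Of the 11 glutathione S-transferase member probes, 2 were called below 0 for each of the 3 proteins, and 1 was called above 0 for HP4 and 1 for HP5. Of the 10 ESCRT member probes, 1 was below and 1 above 0 for each protein. Rpn11, Prosbeta6, SmD3 and the RpS20 probes were called for none of them. The probes of a gene could also differ: at Lamtor5, Su(var)3-9 was called above 0 at 1 probe (0.55, adjusted p = 0.0421) and below 0 at the other (-1.05, adjusted p = 0.000193).

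**Figure D2:**
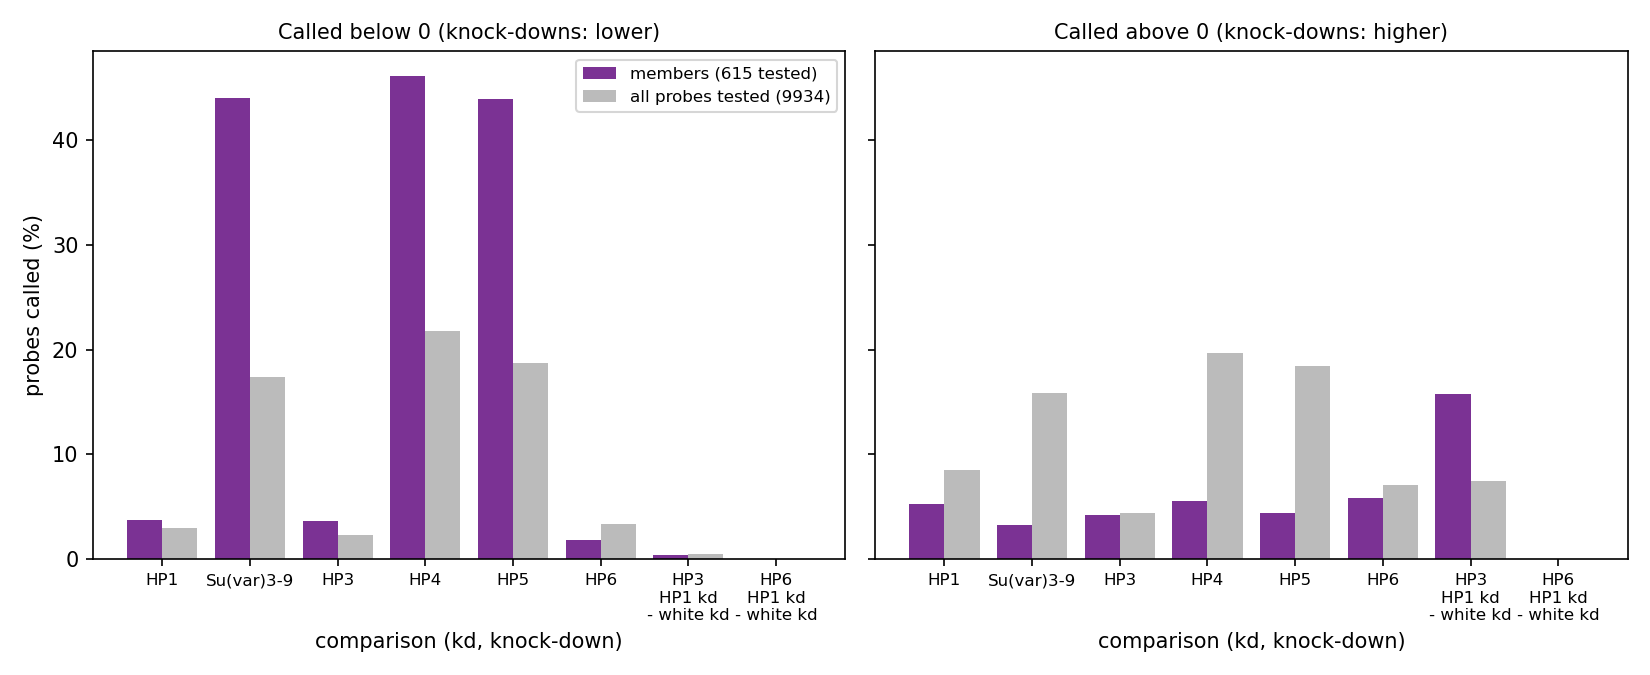
Share of the 615 tested members (purple) and of all 9934 tested probes (grey) that were called in limma, below 0 on the left and above 0 on the right, for each protein and for the HP1 knock-down against the white knock-down. Su(var)3-9, HP4 and HP5 were called below 0 at 43.9% to 46.2% of the members, against 17.4% to 21.8% of all probes.

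HP1 itself was called below 0 at 23 members (3.74%), against 2.95% of all probes, and above 0 at 32 (5.20%), against 8.48%. The members' median was -0.14, with array medians of -0.11, -0.32, -0.05 and 0.01. Called or not, 69.3% of the members had a fitted mean below 0, against 50.9% of the other probes. The share called below 0 moved with single arrays. It was 2.28% of the members and 1.33% of all probes without HP1 replicate 1, 0.813% and 0.594% without replicate 2, 7.48% and 4.51% without replicate 4, and 5.85% and 4.70% without HP4 replicate 2. Without HP1 replicate 1 the share above 0 was 3.41% of the members and 6.87% of all probes. The lowest member was Pfdn2, which read -0.53, -2.65, -0.77 and -0.30 (fitted mean -1.06, SE 0.25, adjusted p = 0.00249). Pen, the importin alpha gene, read -0.70, -1.04, -0.66 and -1.03 (fitted mean -0.86, SE 0.20, adjusted p = 0.00299). The Pfdn2 mean leaned on replicate 2, whereas the 4 arrays of Pen were close together.

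HP3 was called below 0 at 22 members (3.58%), against 2.31% of all probes, and above 0 at 26 (4.23%), against 4.38%. The members' median was -0.04, with array medians of -0.10, -0.00, -0.03 and -0.10. Without the doubted HP3 and HP6 arrays the median was -0.09, and 6.19% of the members and 4.20% of all probes were called below 0. The share called below 0 was 0.650% of the members and 0.755% of all probes without HP3 replicate 1, and 0.488% and 0.413% without replicate 4. Above 0 it was 2.76% and 3.15% without replicate 3, and 2.28% and 2.59% without replicate 4. The lowest named genes were RhoL (-1.30, SE 0.24, adjusted p = 0.000697) and the retinol dehydrogenase gene Rdh1 (-0.98, SE 0.19, adjusted p = 0.00081). At GATAd the doubted array read 3.83 and the others -0.13 to 0.20, and the mean was not called. The highest member was an unnamed clone (2.00), and the highest named gene was dgt4, an augmin subunit gene, which read 1.89, 1.09, 2.67 and 1.35 (fitted mean 1.75, SE 0.22, adjusted p = 5.53e-06). Its 4 arrays all lay above 1.

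HP6 was called below 0 at 11 members (1.79%), against 3.33% of all probes, and above 0 at 36 (5.85%), against 7.05%. The members' array medians were 0.26 and 0.10 on replicates 1 and 2 and -0.44 on the doubted replicate 3, and they were 0.24 to 0.46 on the 4 knock-down arrays. As a result 6 of the 7 HP6 arrays had the members above the array median, and the array whose HP4 probe was high did not. Over replicates 1 and 2 the members' median was 0.18, and that of the other probes -0.01. Without replicate 3 the share called below 0 was 0.326% of the members and 0.957% of all probes, and the share above 0 was 7.82% and 4.35%. Without both doubted arrays 8.63% of the members and 4.78% of all probes were called above 0, so the members then lay above the background where they had lain below it. The share below 0 was 3.75% and 2.68% without HP6 replicate 1, 1.14% and 1.02% without replicate 2, 2.76% and 3.96% without HP4 replicate 1, and 3.90% and 5.50% without HP4 replicate 2. The share above 0 was 3.09% and 6.46% without HP6 replicate 1, and 2.44% and 5.42% without replicate 2. The chromosome 4 gene toy read 3.15 and 2.75 on replicates 1 and 2 and -0.11 on replicate 3, the same split. It was called above 0 for HP6 (1.92, SE 0.33, adjusted p = 0.000129) and for HP1 (0.96), and not for the other 4 proteins. CG33080 (2.77, 2.39 and 0.35) and Cda5 (2.44, 2.53 and 0.10) showed that split as well.

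**Figure D3:**
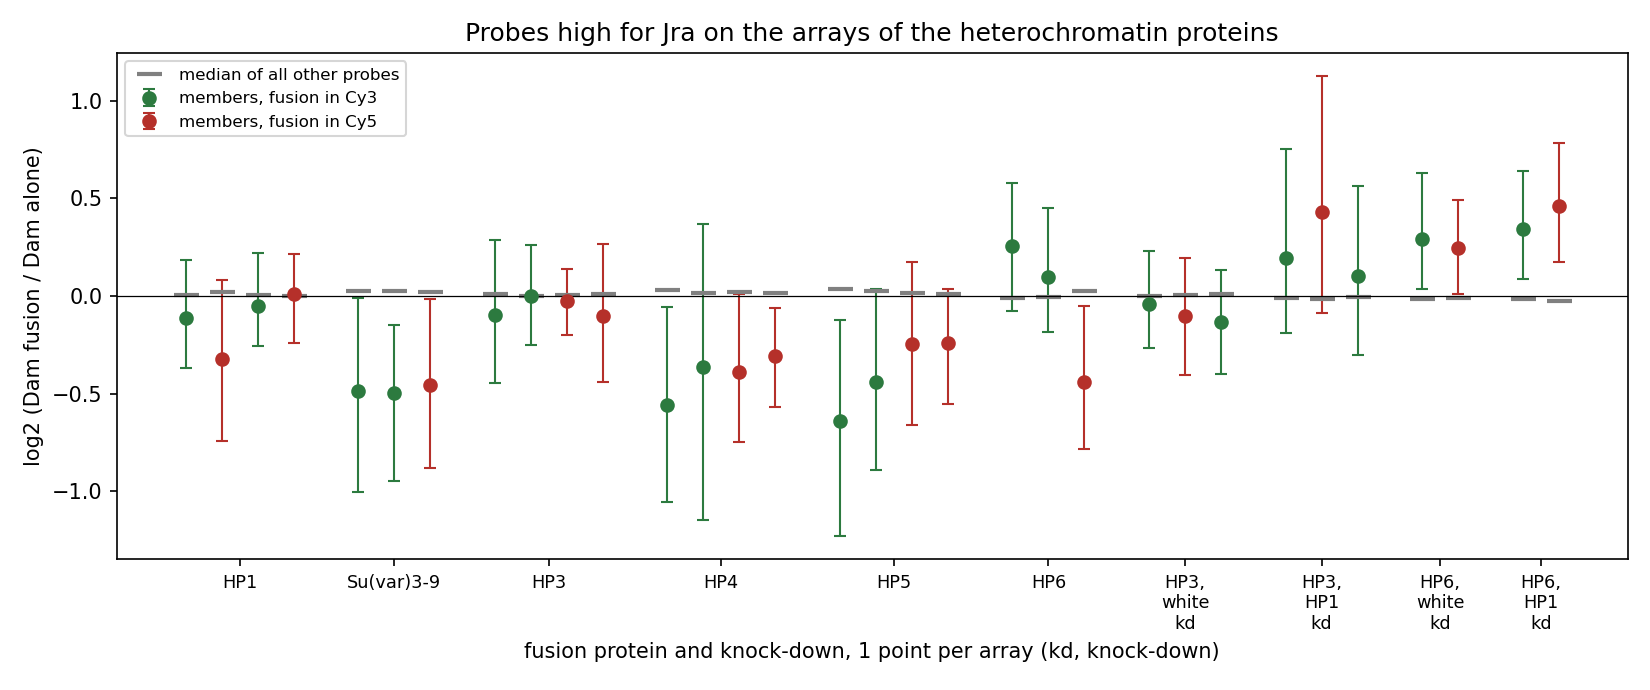
Median log2 ratio of the 617 members on each array of the heterochromatin proteins, with bars from the 25th to the 75th percentile, in green where the fusion was in Cy3 and in red where it was in Cy5, and the median of all other probes as a grey dash. All Su(var)3-9, HP4 and HP5 arrays have the members below 0, and all HP6 arrays but replicate 3 of the untreated cells have them above 0.

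Heterochromatin proteins were high at a few members. At least 1 of the 6 proteins was called above 0 at 87 members (14.1%), against 32.0% of all probes, and all 6 at 6 members (0.976%), against 2.11%. These 6 probes were those of Hip1, a clathrin-associated protein gene, VhaM9.7-b, a proton pump subunit gene, nemy, Karl with 2 probes, and an unnamed clone. Hip1 on 3L had the highest values of any member with a single gene for HP1 (2.27, 3.80, 2.83 and 2.03), Su(var)3-9 (2.50, 2.27 and 2.16) and HP4 (2.72, 2.58, 2.90 and 3.19). Its fitted mean for HP4 was 2.85 (SE 0.23, adjusted p = 6.30e-11), and every array of all 6 proteins lay above 0.8 at this probe, while its Jra ratios were 0.79, 0.72 and 1.15. Karl, a lipocalin gene on X, had HP1 means of 1.94 ± 0.27 and 1.71 ± 0.19 (SD, n = 4) at its 2 probes. The splicing factor gene Spf45 was called above 0 for HP1 (1.68), HP3 (1.01) and HP6 (0.81), and its Su(var)3-9, HP4 and HP5 means of -0.27, -0.12 and 0.07 were not called. Below 0 for all 6 proteins were 2 members (0.325%), against 0.262% of all probes, so the members were near the background. These were Rdh1 and an unnamed clone.

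Over the whole table, Su(var)3-9, HP4 and HP5 had lower medians in the members' classes of Jra level than in the classes under -0.4. Among probes with a Jra mean of -0.8 to -0.4, the median Su(var)3-9 value was 0.11, and it was -0.03 at 0 to 0.4, -0.28 at 0.4 to 0.8 and -0.46 at 0.8 to 1.2. In the next classes, 1.2 to 1.6 and at least 1.6, it was -0.54 and -0.43, the last over 37 probes. HP4 went from 0.09 to -0.54 and HP5 from 0.11 to -0.51 between the same outer classes. HP1, HP3 and HP6 had their highest medians in the middle classes. Across all probes, the correlation of the Jra mean with single arrays was -0.30 to -0.24 for Su(var)3-9, -0.26 to -0.16 for HP4, -0.28 to -0.20 for HP5, -0.19 to -0.06 for HP1 and -0.08 to -0.00 for HP3. HP6 had 0.15 and 0.07 on replicates 1 and 2, -0.25 on the doubted replicate 3 and 0.20 to 0.37 on the 4 knock-down arrays. These are descriptions over all probes with values, which share arrays and the Dam channel, and they carry no test.

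**Figure D4:**
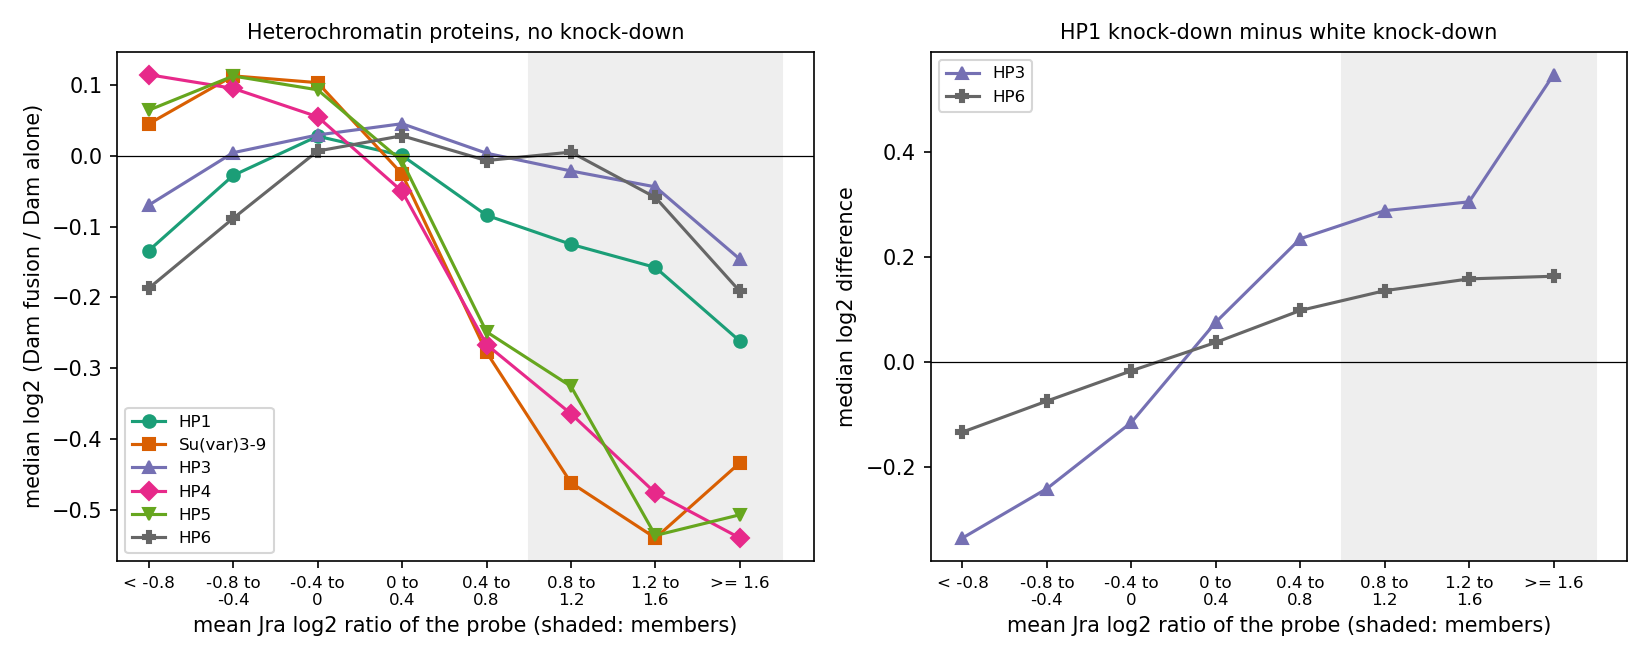
Median log2 ratio of each heterochromatin protein (left) and median log2 difference between HP1 and white knock-down for HP3 and HP6 (right) in classes of probes by their mean Jra ratio, with the members' classes shaded. Su(var)3-9, HP4 and HP5 lie at 0.04 to 0.11 in the classes under -0.4 and at -0.33 to -0.54 in the members' classes, and the HP3 difference runs from -0.33 to 0.55.

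The knock-downs asked where HP3 and HP6 lie when HP1 is depleted. HP3 was higher at many members after HP1 knock-down than after white knock-down: 97 of 615 (15.8%) rose in limma, against 7.43% of all probes, and 2 (0.325%) fell, against 0.443%. The median difference was 0.30 over the members and -0.05 over the other probes. The rise was not particular to the members. Just under the threshold, at a Jra mean of 0.4 to 0.8, 158 of 1207 probes rose (13.1%), with a median difference of 0.23. In the lowest class of members, 0.8 to 1.2, 14.7% rose, with a median of 0.29. The members' medians were -0.04, -0.10 and -0.13 on the 3 white knock-down arrays and 0.20, 0.43 and 0.10 on the 3 HP1 knock-down arrays, so the groups of arrays did not overlap. By replicate number the members' median difference was 0.24, 0.59 and 0.23, and that of the other probes -0.02, 0.00 and -0.06. At 276 members (44.7%) all 3 HP1 knock-down arrays lay above all 3 white knock-down arrays, against 23.4% of all probes. The correlation of the Jra mean with HP3 over all probes was 0.18 to 0.32 on the HP1 knock-down arrays and -0.10 to 0.00 on the white knock-down arrays. The count rested in part on replicate 2 of the HP1 knock-down. Without that array 3.41% of the members rose, against 1.81% of all probes. The shares were 8.62% and 3.74% without white knock-down replicate 2, and 9.59% and 4.41% without white knock-down replicate 3. A fit of these 6 arrays alone gave 36.1% and 16.9%.

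The gene that rose most was maf-S, which read 0.83, 0.98 and 0.56 after white knock-down and 2.82, 3.36 and 2.75 after HP1 knock-down (difference 2.19, SE 0.25, adjusted p = 2.90e-06). Prp38, a splicing factor gene, went from 0.19, -0.19 and -0.57 to 1.82, 2.61 and 1.45 (2.15, SE 0.32, adjusted p = 9.15e-05). GstT1 went from 1.33, 0.81 and 0.75 to 2.68, 3.34 and 2.44 (1.86, SE 0.37, adjusted p = 0.00157). In each of these genes the groups were separate, and maf-S and GstT1 had HP3 above 0 on all 3 white knock-down arrays as well. Boot (1.92, SE 0.45, adjusted p = 0.00604) and CG11226 (1.83, SE 0.25, adjusted p = 3.00e-05) completed the highest 5. The 97 probes had a median HP3 level of 0.02 after white knock-down and 1.33 after HP1 knock-down. Their differences ran from 0.74 to 2.19. After HP1 knock-down 94 of them lay above 0 on all 3 arrays, and after white knock-down 32 did. The 97 were picked by their rise on these same arrays, so these levels and counts only describe them.

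Functions with risen members were mixed. The CCT subunits CCT6 (1.10) and CCT7 (1.49), the ESCRT genes Chmp1 (1.64) and Vta1 (1.34), and the sorting nexin Snx3 (1.71) and the endosomal gene Rbsn-5 (1.03) rose. So did the antioxidant genes Gtpx (1.48) and Trxr1 (0.89), the proteasome genes Rpn11 (0.87) and Prosbeta6 (1.12), the autophagy genes Atg8a (1.48) and Atg4a (0.74), stck (1.31), and RpS20 at both probes (1.33 and 1.47). By family, 2 of 10 ESCRT member probes rose, and 2 of 6 for CCT. Sorting nexins had 2 of 5, autophagy 2 of 5 and thiol and peroxide defence 3 of 7. Glutathione S-transferases had 1 of 11, glycolysis and NADPH supply 1 of 8, and cytochrome P450s 0 of 6. Of all tested members 15.8% rose. By function list, 0 of 4 member probes rose for JNK and for immunity, and 0 of 3 for each of the receptor kinase, ecdysone, hemocyte and apoptosis lists. The counts were 1 of 4 for adhesion and matrix, 1 of 5 for stress and 2 of 3 for the spliceosome and proteasome. These counts are small, and differences between lists or families were not tested. The puc difference was 0.80 (SE 0.34, adjusted p = 0.174). Of the clock genes, cwo and cbt had differences of -0.24 and -0.86, which were not called. At the mitochondrial ribosomal protein genes, none of which is a member, 14 of 74 probes rose. At the spliceosome and proteasome genes 12 of 35 did, 2 of them members. Of all probes tested 7.43% rose, and 641 of these 738 probes were not members. Most of the probes where HP3 rose thus lay outside the members.

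**Figure D5:**
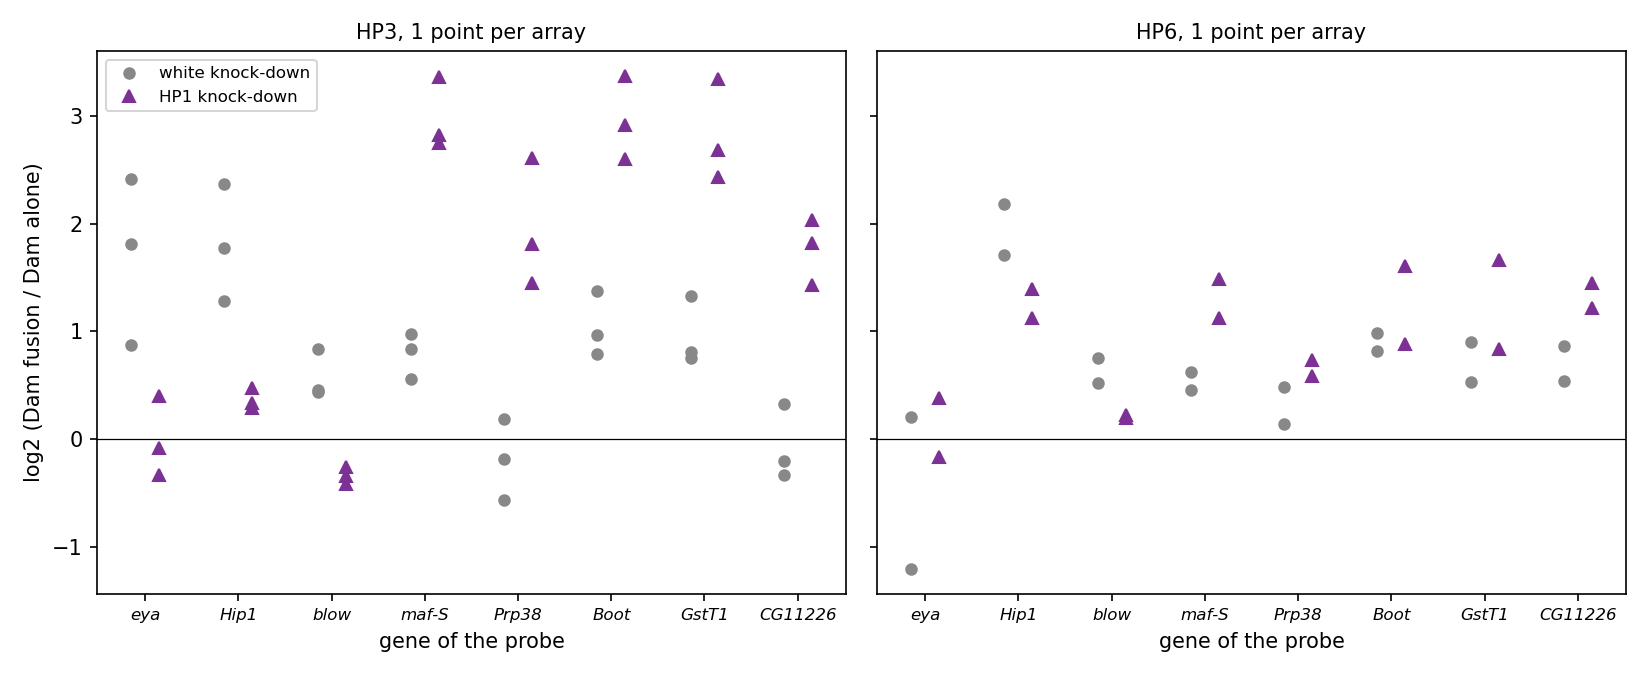
Log2 ratio of HP3 (left) and HP6 (right) on each white knock-down array (grey circles) and HP1 knock-down array (purple triangles) at the members named for the HP3 comparison. At maf-S, Prp38, Boot, GstT1 and CG11226 the HP3 arrays after HP1 knock-down lie above all white knock-down arrays, and at eya, Hip1 and blow below them.

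The rise was seen both where Su(var)3-9, HP4 and HP5 were low and where they were not. Of the 181 members called below 0 for all 3 proteins, 30 rose (16.6%), and the median difference was 0.47. Of the 193 below 0 for 1 or 2 of them, 40 rose (20.7%), with a median of 0.32. Of the 241 below 0 for none, 27 rose (11.2%), with a median of 0.17. Of the 87 members called above 0 for at least 1 of the 6 proteins, 3 rose (3.45%). Over all probes tested 7.43% rose. The share over all probes with the same calls was not computed, so these counts describe the members only. Only 2 members fell. The eye development gene eya read 2.41, 1.81 and 0.88 after white knock-down and -0.34, -0.09 and 0.40 after HP1 knock-down (-1.71, SE 0.44, adjusted p = 0.0115). Hip1, the member highest for HP1, read 2.37, 1.28 and 1.77 and then 0.33, 0.48 and 0.29 (-1.44, SE 0.37, adjusted p = 0.0123). Both calls were lost when HP3 HP1 knock-down replicate 2 or white knock-down replicate 1 was left out, and that of eya also without HP1 knock-down replicate 1 or white knock-down replicate 2. The differences themselves stayed below 0 without each of these 6 arrays, at -2.13 to -1.35 for eya and -1.82 to -1.11 for Hip1. Without HP6 replicate 3, 3 members (0.489%) fell. The next gene, blow, read 0.43, 0.45 and 0.84 and then -0.34, -0.26 and -0.41, which missed the threshold (-0.92, SE 0.30, adjusted p = 0.0537).

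The same comparison was made for HP6. In limma 0 members fell, against 0.0201% of all probes, and 0 rose, against 0%. An unadjusted p under 0.05 was reached at 2 members that were lower and at 12 that were higher. The share of all probes with such a p was not computed, so these counts describe the members only. The members' medians were 0.29 and 0.24 on the white knock-down arrays and 0.34 and 0.46 on the HP1 knock-down arrays, so the groups did not overlap. The median difference was 0.14 over the members and 0.00 over the other probes, and by replicate number it was 0.06 and 0.20. The 2 arrays per group limit this comparison. At 237 members (38.4%) both HP1 knock-down arrays lay above both white knock-down arrays, against 22.1% of all probes. The genes with the lowest p were shrb (1.53, SE 0.53), scramb2, a scramblase gene (1.08, SE 0.36) and the claudin gene kune (0.90, SE 0.31). Their arrays differ: kune read 0.98 and 0.65 and then 1.57 and 1.87, but shrb read -2.95 and 0.08 and then 0.13 and 0.06, and scramb2 -0.24 and 0.05 and then 1.90 and 0.08, so single arrays made these differences. Lower after HP1 knock-down was EndoGI, an endonuclease inhibitor gene, with 1.20 and 0.80 and then -0.12 and -0.03 (-1.07, SE 0.30, adjusted p = 0.871), at 1 of its 2 member probes. Without HP6 HP1 knock-down replicate 2, or without HP6 white knock-down replicate 2, 0.163% of the members rose, which is a single probe.

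Of the 97 members where HP3 rose, 89 (91.8%) had a difference above 0 for HP6, on other arrays, with a median of 0.27. Among the 518 other tested members it was 66.4%, with a median of 0.11. An HP6 difference below 0 was found at 29.6% of all tested members and at 47.9% of all tested probes. Probes outside the members where HP3 rose were not looked at for HP6. At maf-S HP6 read 0.46 and 0.62 and then 1.12 and 1.49, a difference of 0.76 (SE 0.31) that was not called. The difference between the HP3 and HP6 effects was called at 0 members in limma, against 0% of all probes below 0 and 0% above 0. An unadjusted p under 0.05 was reached at 3 members with the HP3 effect below that of HP6 and at 47 with it above. Such counts over all probes were not made, so these describe the members only. The median of that difference was 0.26 over the members and -0.01 over the others, so a larger HP3 than HP6 effect was not shown at any single member. Without HP6 white knock-down replicate 2, a single member (0.163%) was called, against 0.201% of all probes.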

How the data were processed

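The values are log2 ratios of Dam fusion over Dam as deposited by the authors in the series' value table, where the base is not stated and was taken as 2. Per the labels, genomic DNA of Kc cells was hybridised on 2-colour arrays. Scanner settings, background correction and build are named by no source used here. The deposited columns had medians between -0.000168 and 0.000269, and 434 values were missing. Groups were taken from the labels alone.

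Each array was centred on its median, and limma 3.58.1 in R 4.3.3 fitted a mean for each of 11 groups plus a dye effect to all 35 arrays (23 residual degrees of freedom, prior 6.91). A probe needed 2 values in each group, which left out 59 probes, 2 of them members. Tests were two-sided, with Benjamini-Hochberg adjustment over 9934 probes and a threshold of 0.05. SD is between arrays and SE is that of the fit. The procedure was tested on simulated data. Alternatives were no centring, other scaling, no dye term, only complete probes, only the arrays compared, a replicate block, each array left out, the doubted arrays left out, other Jra thresholds, averaging the probes of a gene and members chosen on fewer Jra arrays.

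Probes took gene names from the array's annotation, updated through RefSeq's Release 6 table for 8539 of 8682 probes with a single gene. That table gave only symbols, chromosome arms and gene order. Genes named were the 25 highest for Jra that lay above 0 on every Jra array, up to 5 called in each direction per protein and knock-down (or the 3 of lowest p), up to 6 members per function list by Jra mean, the probes at the threshold, and genes in runs or with several member probes. Family genes were named with their values known. Genes such as Spf45, toy and Lamtor5 are discussed beyond these for other proteins, after their values were seen. The members and lists were chosen with earlier results of these data known, and the families after the members had been seen. Sequences of the probes were not used here, and 1 function list is not reported here.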

Additional observations from a re-analysis of the deposited data

Results flagged for a closer look

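Among 43 sets of values on 4 arrays (the members' medians and the genes named for HP1, HP3, HP4 and HP5), 3 held an array far from the other 3. The cut-off was meant to flag 1 in 20 independent sets. These sets share arrays and their genes were picked by their calls, so the count was not set against a chance rate. At Hip1 the HP3 value was 0.88 on replicate 2 and 1.48 to 1.61 on the other arrays. At CG40191 it was 0.32 on replicate 2 and 1.56 to 1.75 on the others. Both stem from the array labelled HP3 replicate 2, on which the Lhr probe read 0.09. At Sec61beta, a gene of the protein translocation channel, the HP5 value was -2.41 on replicate 1 and -1.37 to -1.20 on the others. The part of single arrays in these values was not tested further.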

How the results depend on the processing

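All shares here are of tested members. The shares called low for Su(var)3-9, HP4 and HP5 stayed above those of all probes in every setting tried, with 30.0% to 49.1%, 37.7% to 47.8% and 27.0% to 47.5% when 1 array at a time was left out, and 10.2% for HP4 when its arrays were fitted alone. The same leave-one-out ranges were 0.813% to 7.48% below and 3.41% to 5.54% above 0 for HP1, 0.488% to 5.05% and 2.28% to 5.37% for HP3, 0.326% to 3.90% and 2.44% to 7.82% for HP6, and 1.79% to 4.07%, 3.09% to 6.02% and 2.44% to 5.53% above 0 for Su(var)3-9, HP4 and HP5. For the HP3 knock-down they were 3.41% to 19.3% higher and 0% to 0.489% lower, for HP6 0% to 0.163% higher and 0% lower, and for the difference 0% to 0.163%. With arrays scaled to equal spread, 8.62% were below 0 for HP1 (6.10% of all probes), 13.2% below (9.57%) and 9.43% above (11.1%) for HP3, 2.28% above for HP4 (13.0%), 2.76% above for HP5 (15.5%) and 4.88% below for HP6 (6.70%). With only the arrays of a comparison, 0.324% were below for HP1 (0.130% of all probes), 0% below and 0% above for HP3 (0% and 0%) and 0.972% above for HP4 (4.44%). For HP6 9.58% were below against 6.16% of all probes, which turned the order of 1.79% against 3.33% in the fit of all arrays. That HP6 fit kept the doubted replicate 3, where the members' median was -0.44. It was the only untreated HP6 array with the fusion in Cy5. With the dye term it therefore weighed as much as replicates 1 and 2 together. In the HP3 knock-down 36.1% rose (16.9% of all probes) and 2.76% fell (7.07%), and 3.25% were called for the difference (1.56%). Without the doubted arrays, 6.19% were below for HP3 (4.20% of all probes), 0.326% below for HP6 (1.20%) and 0.489% lower in the HP3 knock-down (0.997%). With members at a Jra mean of at least 0.6 (1094 probes), 2.29% were below for HP3 and 0.183% fell in the HP3 knock-down. At 1.0 or more (362 probes), 1.67% were above for Su(var)3-9, 3.33% above for HP4 and 0% fell. With the probes of a gene averaged 0.189% fell, and with members chosen without Jra replicate 3, a setting chosen after seeing the data, 0.129%. The cause of these shifts was not tested. With the replicate block in place of the dye term 0.976% were below for HP6, and no other share moved by over 1.5 times. In that setting 14.8% rose in the HP3 knock-down. Same-numbered HP3 knock-down arrays deviated together at correlations of 0.0932, 0.0742 and 0.235, and the HP6 pairs at 0.159 and 0.150. Arrays of different number had -0.211 to 0.0851 for HP3 and -0.158 and -0.151 for HP6. HP1 knock-down replicate 2 of HP3 correlated about as much with white knock-down replicate 1 (0.0851) as with its own number (0.0742). All same-numbered arrays had correlations above 0. With 2 arrays per HP6 group, the HP6 correlations largely repeat each other. These values do not settle whether the numbers are pairs, and they were not taken as pairs. Same-numbered arrays also had the same dye orientation. Of 74 gene values, 30 lost their call in at least 1 setting, and that of HP6 at shrb reversed, from 1.53 to -0.082, without HP6 white knock-down replicate 1 and was 3.15 without replicate 2, its leave-one-out extremes. Signal over background is unknown here.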
